A study of Xenopus laevis with 16 samples.

Results

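Skeletal muscle fibres spend energy on moving calcium as well as on force, and 5 genes of that machinery were followed here in Xenopus laevis hindlimb stumps: casq1, atp2a1, ocm4.4, ckm and cavin4. Probe sets were taken where the platform annotation gave exactly 1 gene symbol and that symbol, without its subgenome ending L or S, was one of the 5. The rule found 11 probe sets for 5 of the 7531 genes named by such probe sets: 1 for casq1.S, 2 for atp2a1.S, 4 for ocm4.4.S, 3 for ckm.L and 1 for cavin4.S. Where a gene has several, they are called A to D in the order of their identifiers on the platform. The genes were chosen by their measured differences between stages on these arrays, and ckm also by its day change at stage 53. Their stage differences, their day change at stage 53 and the difference between the day changes are therefore a description with no test. Only their day change at stage 57 was tested.

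The series compared hindlimbs at stage 53, which can regenerate, with hindlimbs at stage 57, which regenerate incompletely. Limbs were amputated on 1 or both sides at the middle of the zeugopod (the lower leg), and the tissue taken reached 1 mm proximal to the cut. Each stage was sampled 1 day and 5 days after the cut, with 4 arrays for each of the 4 combinations. All groups were amputated, so none gives the level of an uncut limb. No genotype, strain or sex is given in the labels, nor whether an array stands for 1 animal or a pool, so the spread between arrays may be technical. Replicate numbers only name arrays.

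In a resting fibre, calcium is held in the sarcoplasmic reticulum, where the product of casq1, calsequestrin, binds it in bulk. After a twitch, the pump SERCA1, encoded by atp2a1, returns calcium to this store at the cost of ATP, and parvalbumins, the small calcium-binding proteins to which the ocm4 genes belong, take up calcium in the cytosol of fast fibres. Muscle creatine kinase, encoded by ckm, regenerates ATP from phosphocreatine, and cavin4 encodes a muscle protein of the coat of caveolae, the small pits of the fibre membrane.

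Values are log2 MAS5 signals. A difference of 1 on this scale is a doubling, and levels of different probe sets cannot be set against each other. Probe sets were tested where their mean over all 16 arrays exceeded 6.6 (the 25th percentile), which 11618 of 15491 did, all 11 described here among them. For casq1.S and cavin4.S at both days, and for 3 of the 4 ocm4.4.S probe sets on at least 1 day, the stage 53 mean itself lay below that value. These probe sets passed through their stage 57 level, and the size of their stage difference is uncertain because dim signals are not separated from background. Some arrays stood apart in control probe sets. On 3 stage 57 arrays, replicates 2 and 3 at 1 day and replicate 2 at 5 days, the 3′ beta-actin probe set exceeded the 5′ one by 4.7 to 5.72 on the log2 scale, against 0.01 to 2.38 on the other 13. For GAPDH the same 3 arrays were also the highest, at 5.46, 7.33 and 6.17, against 3.63 to 5.22 on the other 13. The cause of these high ratios, found at stage 57 alone, was not tested. Values without these 3 arrays are given beside the results that they change.

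Calsequestrin, the calcium store protein, was far lower at stage 53 than at stage 57 on both days. The casq1.S signal was 6.01, 4.55, 6.07 and 6.7 on the stage 53 arrays at 1 day and 5.73, 3.56, 4.41 and 6.5 at 5 days. At stage 57 it was 11.68, 8.98, 9.2 and 8.85 at 1 day and 10.7, 8.52, 11.71 and 11.64 at 5 days. Every stage 57 array lay above every stage 53 array, and the stage 57 arrays at 1 day held 1 bright array and 3 close together. Stage 53 was lower by 14.3-fold at 1 day (log2 difference -3.84, SE 0.79) and by 48.2-fold at 5 days (-5.59, SE 0.79). Among all tested probe sets, 0.2% had a lower difference at 1 day and 0.03% at 5 days. These shares use the difference that chose the gene, so nothing is read from them. With a larger offset added before the log2 step the 5 day difference shrank to -3.62. Without the 3 arrays of high actin ratio the differences were -4.43 and -6.3.

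The calcium pump gave 2 patterns, 1 for each probe set. With atp2a1.S probe set A the stage 53 arrays read 9.9, 9.18, 8.71 and 9.56 at 1 day and 9.76, 9.93, 9.34 and 9.47 at 5 days. The stage 57 arrays read 13.81, 10.11, 9.73 and 12.3 at 1 day and 14.01, 9.38, 13.16 and 13.63 at 5 days. The stages overlapped, because 2 of the 3 arrays of high actin ratio lay inside the stage 53 range. These 3 arrays, at 9.38 to 10.11, lay below the other 5 stage 57 arrays, at 12.3 to 14.01. The stage differences, stage 53 minus stage 57, were -2.15 at 1 day and -2.92 at 5 days (log2, SE 0.89), and without the 3 arrays they were -3.72 and -3.97. Without stage 57 replicate 1, the brightest array at 1 day, the 1 day difference was -1.37. The other probe set, probe set B, showed no such stage difference. It read 12.63 to 12.94 at stage 53 and 1 day, 12.46 to 12.89 at 5 days, 11.51 to 13.01 at stage 57 and 1 day and 12.41 to 13.17 at 5 days. Its stage differences were 0.39 at 1 day and -0.11 at 5 days (SE 0.28). Over the 16 arrays the 2 probe sets had a Pearson r of 0.04. RefSeq lists an atp2a1.L gene as well, and which transcripts each probe set detects was not tested.

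All 4 probe sets of the parvalbumin family gene ocm4.4.S were low at stage 53 and high at stage 57. With probe set C the stage 53 arrays read 5.8, 6.15, 5.52 and 5.66 at 1 day and 5.75, 4.73, 6.6 and 6.84 at 5 days. The stage 57 arrays read 12.27, 9.69, 10.73 and 8.78 at 1 day and 11.3, 9.86, 11.91 and 11.09 at 5 days. In each of the 4 probe sets every stage 57 array lay above every stage 53 array. With this probe set stage 53 was lower by 23.9-fold at 1 day (log2 difference -4.58, SE 0.62) and 33.4-fold at 5 days (-5.06, SE 0.62). The other 3 gave log2 differences of -3.57 to -4.09 at 1 day and -3.9 to -5.04 at 5 days. Replicate 1 was the highest of the stage 57 arrays at 1 day in all 4 probe sets and replicate 4 the lowest. These probe sets are not independent measurements, since all 4 identifiers carry the same sequence cluster number. Within it, A and B share a further number and C and D share another. RefSeq lists many other ocm4 genes in this species, so signal from close copies cannot be told apart from ocm4.4.S.

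Muscle creatine kinase again split by probe set. With ckm.L probe set A the stage 53 arrays read 7.96, 7.26, 7.89 and 8.9 at 1 day and 8.64, 6.76, 7.68 and 7.1 at 5 days. The stage 57 arrays read 12.78, 8.9, 8.28 and 9.82 at 1 day and 12.18, 8.01, 10.97 and 11.09 at 5 days. As with the calcium pump, the 3 arrays of high actin ratio (8.01 to 8.9) lay below the other 5 stage 57 arrays (9.82 to 12.78), and 2 of them lay inside the stage 53 range. The stage differences were -1.94 at 1 day and -3.02 at 5 days (log2, SE 0.88), and without the 3 arrays they were -3.29 and -3.87. The 1 day value leaned on the bright stage 57 replicate 1, without which it was -1.0. Probe set B, from the same sequence cluster, followed it with an r of 0.99. Its differences were -1.84 and -2.51 (SE 0.71), or -2.78 and -3.2 without the 3 arrays and -1.02 at 1 day without stage 57 replicate 1, and its stages did not overlap at 1 day.

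The third ckm.L probe set, probe set C, had a different pattern: at stage 53 its arrays were lower at 5 days than at 1 day, and the stage 57 means lay between those levels. The stage 53 arrays read 11.82, 11.76, 12 and 12.54 at 1 day and 11.41, 11.04, 10.9 and 10.51 at 5 days. The stage 57 arrays read 11.89, 12.16, 10.27 and 11.17 at 1 day and 11.35, 11.39, 11.82 and 11.57 at 5 days. Both stages overlapped on each day, with stage differences of 0.66 at 1 day and -0.56 at 5 days (SE 0.35). Its r with probe set A was 0.28. RefSeq lists a ckm.S gene too, and the origin of the disagreement was not tested.

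The caveola gene cavin4.S was low at stage 53 and high at stage 57. The stage 53 arrays read 6.14, 1.85, 4.39 and 4.4 at 1 day and 5.23, 5.64, 3.82 and 6.15 at 5 days. The stage 57 arrays read 10.86, 9, 10.59 and 9.04 at 1 day and 10.61, 9.45, 9.16 and 9.47 at 5 days. Every stage 57 array exceeded every stage 53 array, and the 3 arrays of high actin ratio lay among the others. Stage 53 was lower by 51.2-fold at 1 day (log2 difference -5.68, SE 0.74) and 22.1-fold at 5 days (-4.46, SE 0.74). At 1 day 1 of the 11618 tested probe sets had a lower difference, and at 5 days 15 had. These ranks use the difference that chose the gene, so nothing is read from them. The stage 53 means, 4.19 and 5.21, lay below the filter value. With a larger offset added before the log2 step the differences shrank to -3.04 and -2.69.

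**Figure D1:**
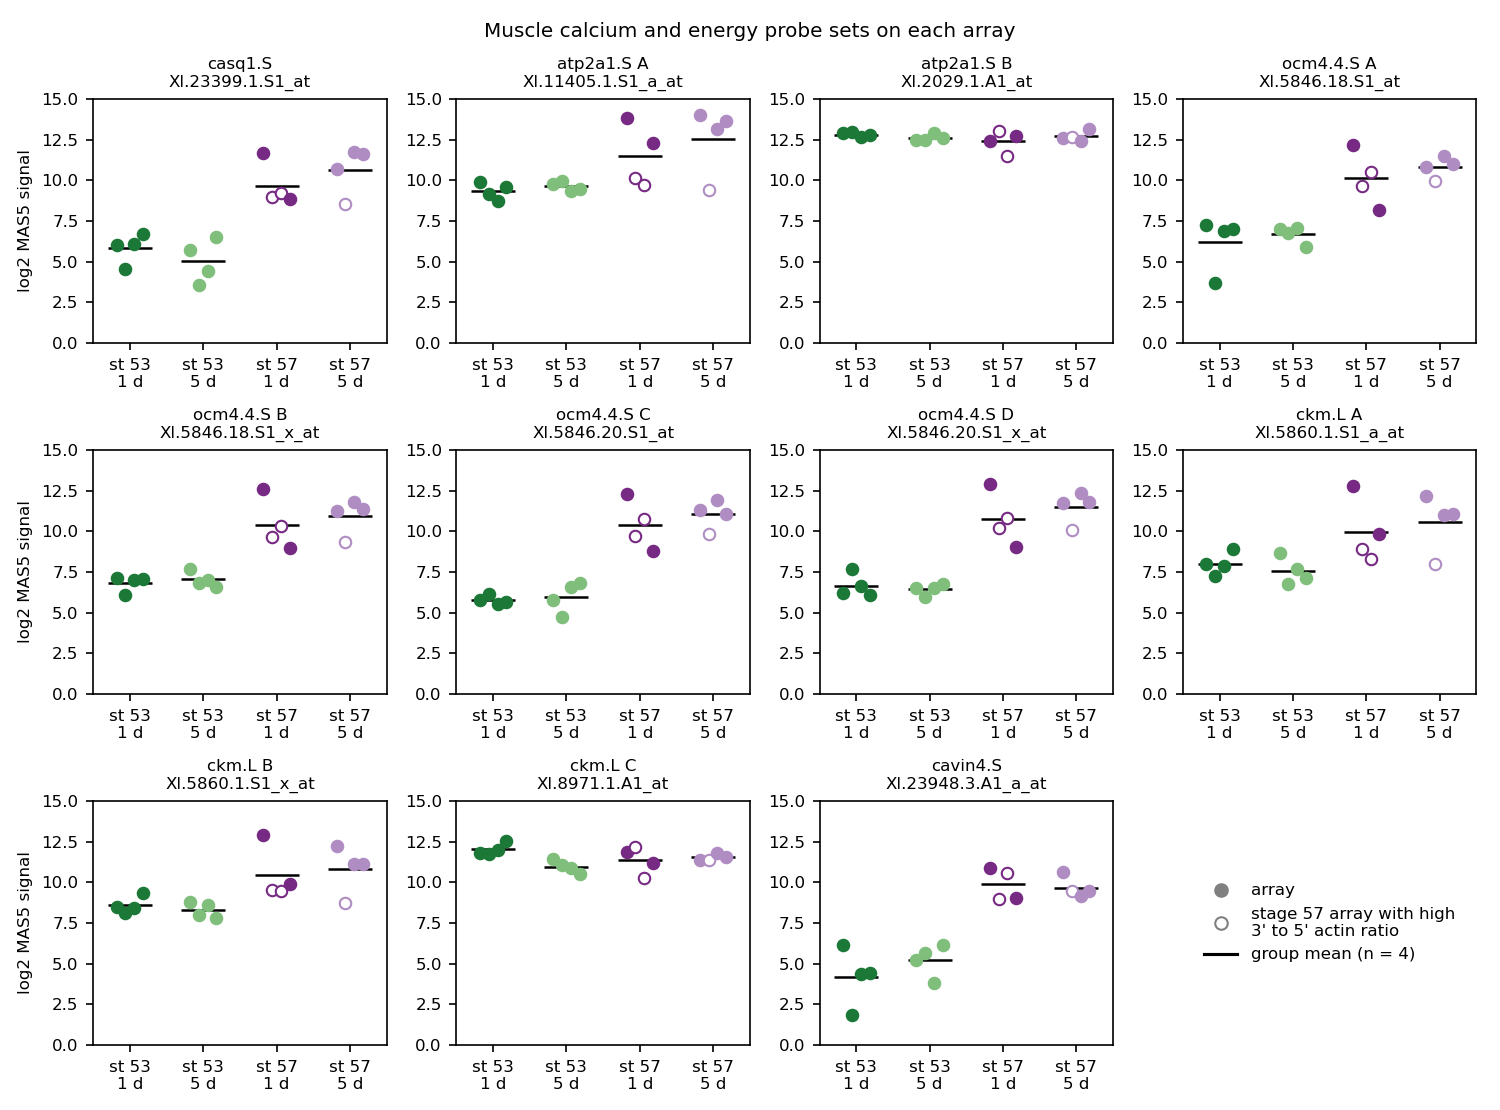
Log2 MAS5 signal (vertical axis) of the 11 probe sets on each of the 16 arrays, by stage and day (horizontal axis); lines are group means of 4 arrays and open circles are the 3 stage 57 arrays of high 3′ to 5′ actin ratio. The stages do not overlap for casq1.S, cavin4.S and the 4 ocm4.4.S probe sets, and the open circles lie lowest at stage 57 for atp2a1.S A and probe sets A and B of ckm.L.

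In all, 7 of 11 probe sets had stage 53 arrays wholly below the stage 57 arrays at 1 day and 6 of 11 at 5 days, where 4.32% and 7.36% of all tested probe sets did. The rule used these differences, so nothing is read from the comparison. In the order of group means, the 2 stage 57 groups stood first in 9 of 11 probe sets, and neighbouring groups of the same stage overlapped in all 11 except for the day change of ckm.L C at stage 53. With whole-tissue RNA, fewer muscle cells and less of a transcript per cell cannot be told apart.

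The contractile apparatus gave a reference for how much muscle transcript each array held. The mean of 18 sarcomere genes (actins, myosin chains, troponins and others of a fixed list) was 7.25 ± 0.59, 7.73 ± 0.17, 10.54 ± 0.75 and 10.99 ± 0.74 (SD, n = 4) for the early and late stage 53 groups and the early and late stage 57 groups in turn. The stage difference of this mean was -3.29 at 1 day and -3.26 at 5 days. What remains of a member after this mean is subtracted draws on the stage difference that chose it, so it is a description with no test. For cavin4.S the remaining differences were -2.38 at 1 day and -1.2 at 5 days, with no overlap between stages on either day. The ocm4.4.S probe set C gave -1.29 at 1 day, where the stages overlapped, and -1.8 at 5 days, where they did not. Probe set D gave -0.79 and -1.78, with overlap at 1 day alone, but A (-0.62 and -0.88) and B (-0.27 and -0.63) overlapped between stages on both days. For casq1.S the remaining differences were -0.55 and -2.33, with overlap on both days. The size of these remainders is uncertain where the stage 53 mean lay below the filter value. That holds for cavin4.S, casq1.S and ocm4.4.S C on both days, ocm4.4.S A at 1 day and ocm4.4.S D at 5 days. Before subtraction, a larger offset shrank the cavin4.S differences to -3.04 and -2.69. Neither the sarcomere mean nor the remainders were computed with an offset. For atp2a1.S A they were 1.15 and 0.35, and for ckm.L A 1.35 and 0.25, all with overlap. In both probe sets the 3 arrays of high actin ratio lay below the other 5 stage 57 arrays, and remainders without them were not computed. Before subtraction, the differences without them were -3.72 and -3.97 for atp2a1.S A and -3.29 and -3.87 for ckm.L A. The 17 sarcomere genes tested in that fit had medians of -3.68 and -3.6.

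Across the 16 arrays, levels of casq1.S, cavin4.S and the 4 ocm4.4.S probe sets had an r of 0.9 to 0.96 with the sarcomere mean. The stage-dependent atp2a1.S and ckm.L probe sets had 0.8 to 0.84, and the other probe set of each had -0.24 and -0.14. The stage difference makes up most of these values. With each group's mean removed, r was 0.45 to 0.72 for the 9 stage-dependent probe sets and -0.24 and -0.18 for the other 2. Among members, the tightest such relation between different genes was that of atp2a1.S A with ckm.L A, at 0.89 over 16 arrays, 0.96 over the 8 stage 57 arrays and 0.16 over the 8 stage 53 arrays. Points of this kind share an array and its RNA, and the 3 arrays of high actin ratio are low in both. Other genes lay closer to each with group means removed. The nearest over 16 arrays was rps6kb1.S for atp2a1.S A (0.959) and cct8.L for ckm.L A (0.929).

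**Figure D2:**
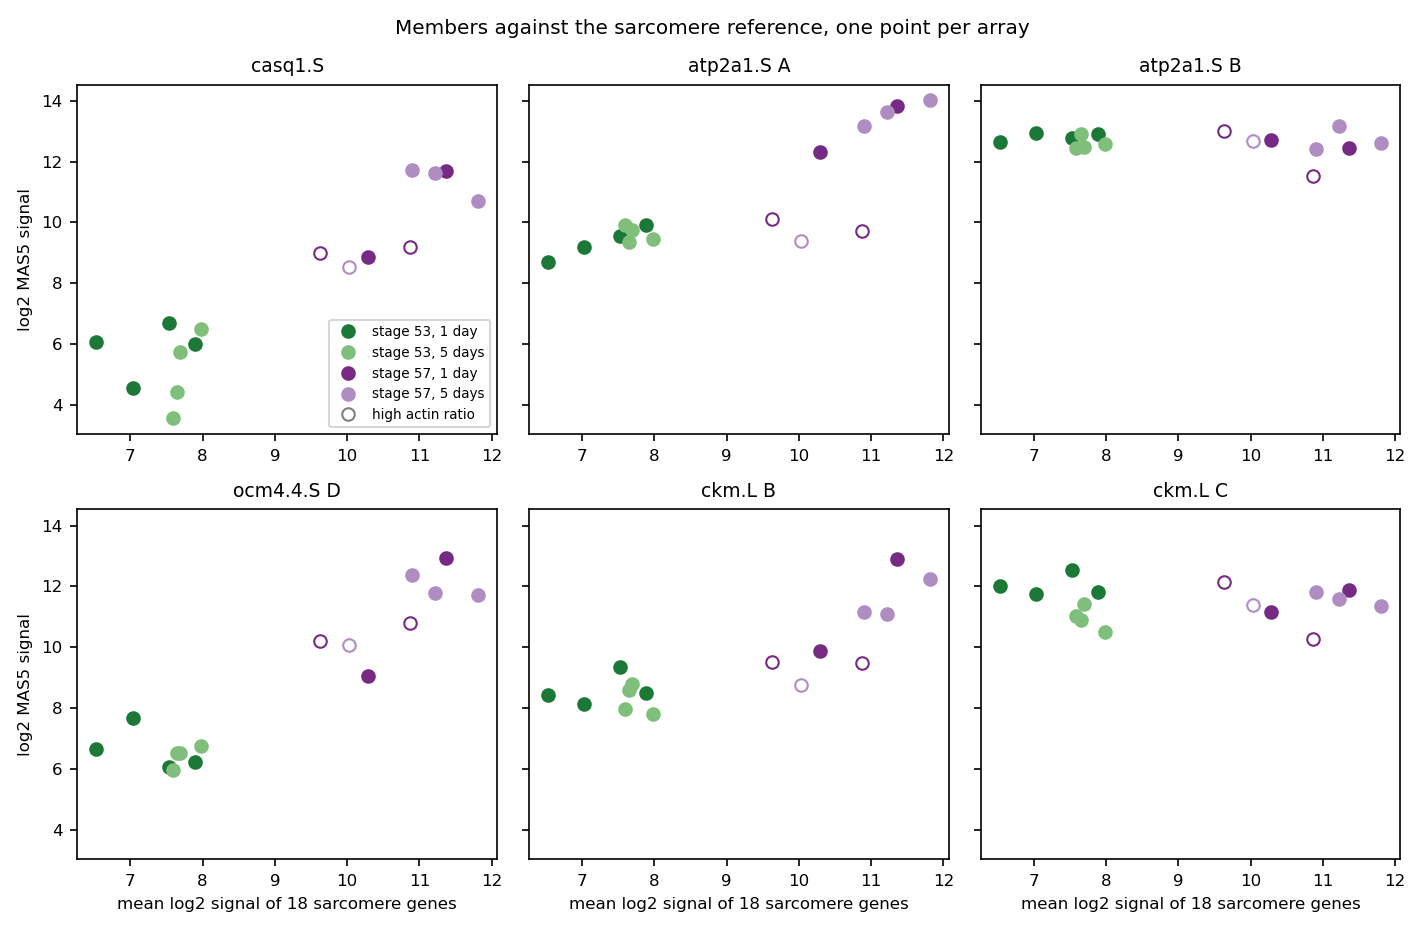
Log2 MAS5 signal of 6 probe sets (vertical axes) against the mean log2 signal of 18 sarcomere genes (horizontal axes), 1 point per array, coloured by stage and day; open circles are the 3 arrays of high actin ratio. The atp2a1.S probe set B and the ckm.L probe set C (r of -0.24 and -0.14) do not follow the sarcomere mean, while the other 4 have r of 0.83 to 0.93.

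From 1 to 5 days at stage 53, the ckm.L signal of probe set C was 2.09-fold lower at the later day, and the arrays of the 2 days did not overlap (log2 difference -1.06, SE 0.35). Of all tested probe sets, 2.18% had a lower day difference, 4.93% had their 5 day arrays wholly below their 1 day arrays, and 0.121% passed an adjusted p below 0.05 in either direction. The other ckm.L probe sets gave -0.46 (SE 0.88) and -0.31 (SE 0.71), with overlapping days. No other member's days were separated at stage 53: casq1.S gave -0.78, cavin4.S 1.02, the ocm4.4.S probe sets -0.22 to 0.47, and the atp2a1.S probe sets 0.29 and -0.21. The difference between the day changes of the stages was -1.22 (SE 0.49) for ckm.L C.

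At stage 57, where a test was possible, no member changed detectably from 1 to 5 days. In limma's moderated test, 0 of 11 probe sets passed an adjusted p below 0.05, and 0 had an unadjusted p under 0.05. Of all 11618 tested probe sets, 0% passed and 2.04% had an unadjusted p under 0.05. The smallest member p was 0.239 unadjusted and 0.999 adjusted, for casq1.S, whose log2 difference was 0.97 with a 95% interval of -0.71 to 2.64. The widest interval was that of atp2a1.S A, -0.83 to 2.94 around 1.06, so changes of that size could not be detected with all arrays fitted. Once the 3 arrays of high actin ratio were dropped, its difference was 0.54 (SE 0.42, from 0.89). That of ckm.L A was then 0.11, from 0.62. Others rose: casq1.S to 1.09 (SE 0.86, from 0.79) and the ocm4.4.S probe sets to 0.7 to 0.97, from 0.55 to 0.74. No member passed the test then either. The narrowest interval with all arrays was that of atp2a1.S B, -0.31 to 0.89 around 0.29. For ckm.L C the difference was 0.16, with an interval of -0.58 to 0.89. Differences were above 0 in 10 of 11 probe sets, with a median of 0.62, beside a median of 0.02 over all tested probe sets, and they are not independent, since probe sets share genes and all share the arrays.

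**Figure D3:**
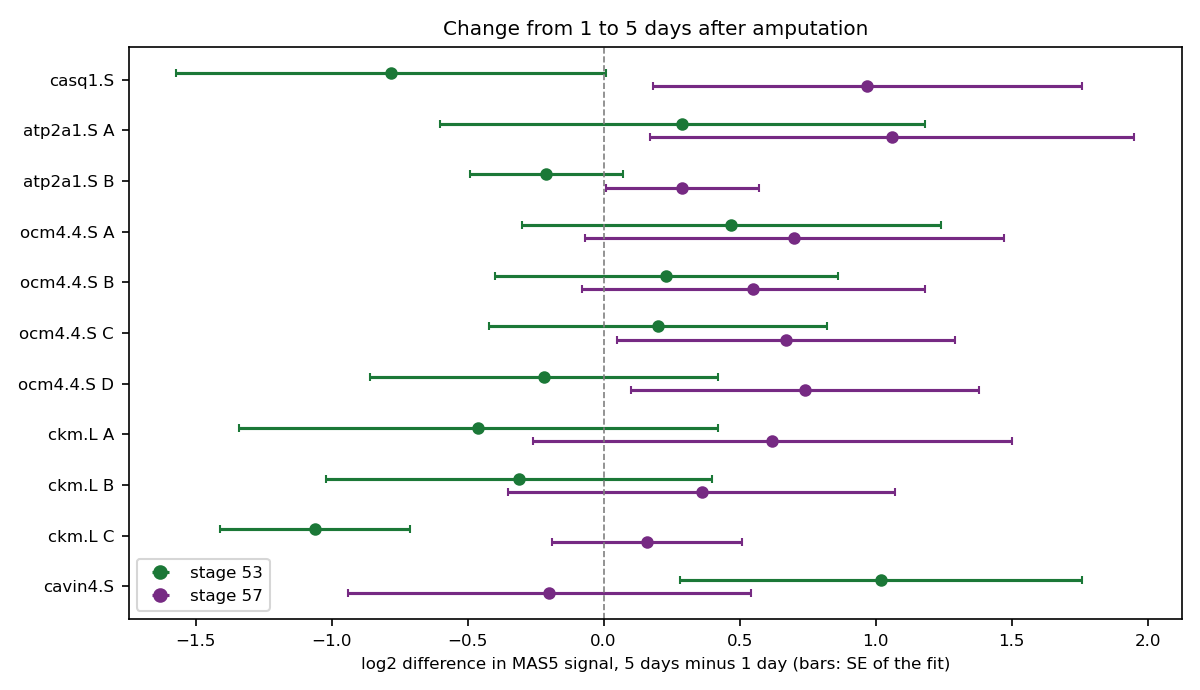
Log2 difference in MAS5 signal from 1 to 5 days after amputation (horizontal axis) for the 11 probe sets, at stage 53 and at stage 57; bars are the standard error of the limma fit with 4 arrays per group. ckm.L C at stage 53 lies at -1.06, and at stage 57 10 of 11 points lie above 0 with none passing the test.

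The wider machinery was followed in 5 lists of genes with related work, the members left out, each gene by its brightest tested probe set. Of 67 such genes with a probe set, 60 were tested. The lists were chosen with earlier results of these data known, and the shares of the table count every tested probe set. Those shares therefore stand beside the counts as a description only. At 1 day 10 of 60 were lower at stage 53 and 0 higher in limma's test at an adjusted p below 0.05, where 1.56% of all tested probe sets were lower and 0.99% higher. At 5 days 21 were lower and 2 higher, against 3.89% lower and 3.48% higher in the table, and 9 of the genes were called on both days. The median log2 difference was -0.4 at 1 day and -0.56 at 5 days, beside 0.04 and 0.1 over all tested probe sets. In the sarcomere list, by contrast with these lists, 16 of 18 genes were lower on each day with medians of -3.43 and -3.39. The count at 1 day depended on single arrays: it was 3 without stage 53 replicate 3, 6 without stage 53 replicate 1 and 5 without stage 57 replicate 1. Without the 3 arrays of high actin ratio it was 12, of which 4 were gained, and at 5 days 26, of which 4 were gained. That fit called 1.44% of all tested probe sets lower at 1 day and 7.54% at 5 days. In either direction it called 1837 of 11618 at 5 days, against 856 with all arrays, so the gains at 5 days came with a rise over the whole table. The 5 day count of the lists was 13 without stage 53 replicate 4 and 14 without stage 57 replicate 3, each from 23.

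Among 14 other calcium-handling genes of the triad and sarcoplasmic reticulum, 3 were lower at stage 53 on each day and none higher. The gamma subunit gene of the muscle calcium channel, cacng1.L, was lower on both days, with log2 differences of -2.89 at 1 day (SE 0.65, limma adjusted p = 0.0247) and -3.37 at 5 days (adjusted p = 0.00475). Its arrays read 5.6 to 6.51 and 5.16 to 6.72 at stage 53 and 7.07 to 10.99 and 8.16 to 10.23 at stage 57. Sarcalumenin (srl.L), a calcium-binding protein beside the pump, was lower as well (-1.8 and -1.79). The second calsequestrin, casq2.S, known from heart and slow muscle, was lower at 1 day (-2.43, adjusted p = 0.0146), and at 5 days its difference was -1.18 (adjusted p = 0.169). The triad protein gene sypl2.S was called at 5 days (-1.81, adjusted p = 0.0342), and without the 3 arrays of high actin ratio also at 1 day (-2.26). Its 5 day call was lost without any of several single arrays (limma adjusted p of 0.0694 to 0.0979). Not called on either day were the pore subunit gene of the channel, cacna1s.S (-1.1 and -0.28), and the related pump gene atp2a2.S (0.07 and -0.46, or -0.84 and -0.97 with its dimmer probe set). Which cells gave the atp2a2.S signal was not tested. The cacng1.L and srl.L calls at 1 day were lost when only the 2 groups compared were fitted, with adjusted p of 0.0916 and 0.12. Both were also lost without some single arrays, and srl.L with quantile normalization (0.0605). The 1 day casq2.S call was lost without stage 53 replicate 3 at 1 day (0.0599). The 5 day srl.L call was lost without stage 53 replicate 3 at 5 days (0.0603).

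Only ocm4.1.L of 4 other ocm4 genes with a probe set was bright enough to test. It was lower at stage 53 at 5 days (log2 difference -3.21, limma adjusted p = 0.016), and at 1 day the difference was -1.43 (adjusted p = 0.311). The 5 day call of ocm4.1.L was lost without some single arrays (adjusted p of 0.0523 to 0.0646). Its stage 57 arrays at 1 day were spread from 7.29 to 11.19, and replicate 1 was again the highest and replicate 4 the lowest.

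In energy metabolism, called genes of muscle isoforms were lower at stage 53 at 1 day and lay in both directions at 5 days. Of 13 tested, 3 were lower at stage 53 at 1 day, and at 5 days 5 were lower and 2 higher. Lower on both days were ak1.S, an adenylate kinase (-2.18 and -1.98), pgam2.L, the muscle phosphoglycerate mutase (-2.15 and -2.21), and adss1.L, the muscle adenylosuccinate synthase (-2.12 and -2.3). The 1 day pgam2.L call was lost when only the 2 groups compared were fitted (limma adjusted p = 0.12). The 1 day adss1.L call was lost without some single arrays (0.0588 to 0.0703). At 5 days the ADP/ATP carrier slc25a4.L was also lower (-2.78, SE 0.69, limma adjusted p = 0.0217), and aldolase A (aldoa.L, -1.7) stood at an adjusted p of 0.0499. The slc25a4.L call was lost without some single arrays (0.058 to 0.08). Higher at stage 53 at 5 days were pfkm.S, the muscle phosphofructokinase (1.23, adjusted p = 0.026), and slc2a4.L, the insulin-responsive glucose transporter (1.07, adjusted p = 0.0285). Neither was called higher without stage 53 replicate 4 at 5 days or without stage 57 replicate 3 at 5 days. The pfkm.S call was also lost when only the 2 groups compared were fitted (adjusted p = 0.0517). Glycogen phosphorylase of muscle was not called (pygm.L -0.03 and -0.44, pygm.S 0.35 and 0.1, or -0.6 and -0.86 with its dimmer probe set). Without the 3 arrays of high actin ratio the 1 day call of ak1.S was lost (-1.87, adjusted p = 0.0945), slc25a4.L was called lower on both days (-3.17 and -3.34), and pgam2.L, below the brightness filter on the remaining arrays, was not tested. The second aldolase A copy, aldoa.S, was then called lower at 5 days (-1.15, adjusted p = 0.000587, from -1.65 with 0.0603).

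Energy genes outside the muscle isoform list were tested beside it. Several of them are general enzymes not limited to other tissues, so the list is no clean contrast to muscle. Of 20, 1 was lower at stage 53 at 1 day (pfkp.L, the platelet phosphofructokinase, -1.56, limma adjusted p = 0.00451), and 6 were lower at 5 days. Besides pfkp.L (-1.23) these were 5 probe sets of later glycolysis: ldhb.L (-2.12, adjusted p = 0.0011), pgk1 (-1.28), pgam1.L (-1.76), pgam1.S (-1.24) and pkm.S (-1.11). Some other genes of later glycolysis were not called at 5 days. These were the second copies ldhb.S (0.07) and pkm.L (0.22), and gapdh.L (0.12), eno1.L (-0.5) and eno1.S (-0.53). The brain creatine kinase ckb.L gave 0.1 at 1 day and 1.03 at 5 days (adjusted p = 0.149). Without the 3 arrays of high actin ratio ckb.L gave -0.69 and 0.65, and the 5 day difference was called (adjusted p = 0.0453).

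Several of these glycolytic genes gave lower values at 5 days than at 1 day within stage 53, as did the ckm.L probe set C, although none passed the adjusted test. The pgk1 arrays read 12.85 to 13.33 at 1 day and lower at 5 days, with a lowest value of 11.75 (log2 difference -1.04, SE 0.23, limma adjusted p = 0.0722). For pkm.S the difference was -1.18 (adjusted p = 0.134), for aldoa.L -1.3 (0.397) and for ldhb.L -1.04 (0.265), and for ckb.L it was 1.06 (0.402). The days did not overlap in any of these 5 genes. In all, 0 of 60 genes of the 5 lists were called for this day change, 11 had an unadjusted p under 0.05 (9.56% of the table did), and 9 had their 5 day arrays wholly below and 4 wholly above their 1 day arrays (4.93% and 6.17% of the table). Without the 3 arrays of high actin ratio, which are all of stage 57 and enter only through the shared spread, 6 of 59 tested were called lower and 1 higher, with 3.19% of the table called in either direction. Those called were aldoa.L, aldoa.S, ldhb.L, pgam1.S, pgk1 and pkm.S on the lower side and ckb.L on the higher. A fit of the 2 stage 53 groups alone called the same genes except pgam1.S, with 2.39% of the table called. At stage 57, 0 of 60 were called between days and 0 had an unadjusted p under 0.05. In the difference between the day changes 0 of 60 were called and 4 had an unadjusted p under 0.05, where 0.0258% and 3.97% of the table did.

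Caveola and membrane genes were lower at stage 53 in 3 of 12 cases at 1 day and 6 of 12 at 5 days, with none higher. The membrane repair gene trim72.L was lower on both days (-2.52, SE 0.38, limma adjusted p = 0.00125, and -2.74), with arrays at 7.26 to 8.13 and 6.97 to 7.94 at stage 53 and 9.32 to 10.64 and 9.64 to 11.23 at stage 57. The caveola neck protein gene ehd2.S was lower (-1.66 and -2.14), although its other probe set, at -0.08 and -0.81, was not called. The caveolin gene cav2.S was lower too (-1.44 and -1.98). At 5 days cav1.L (-2.09), the T-tubule gene bin1.L (-1.5) and cavin1.L, the general caveola coat protein (-1.17, adjusted p = 0.0322), were also lower. Without the 3 arrays of high actin ratio cav1.L (-1.89) and bin1.L (-1.63) were called at 1 day too. At 5 days that fit gained bin1.S (-0.99, adjusted p = 0.044, from -0.59) and cavin2.S (-2.08, adjusted p = 0.00118, from -1.17). The muscle caveolin of the list, cav3.2.S, was not called (-0.98 and -0.32). The 1 day call of cav2.S was lost in a fit of the 2 groups compared alone (adjusted p = 0.149), and the cavin1.L call likewise (0.052).

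**Figure D4:**
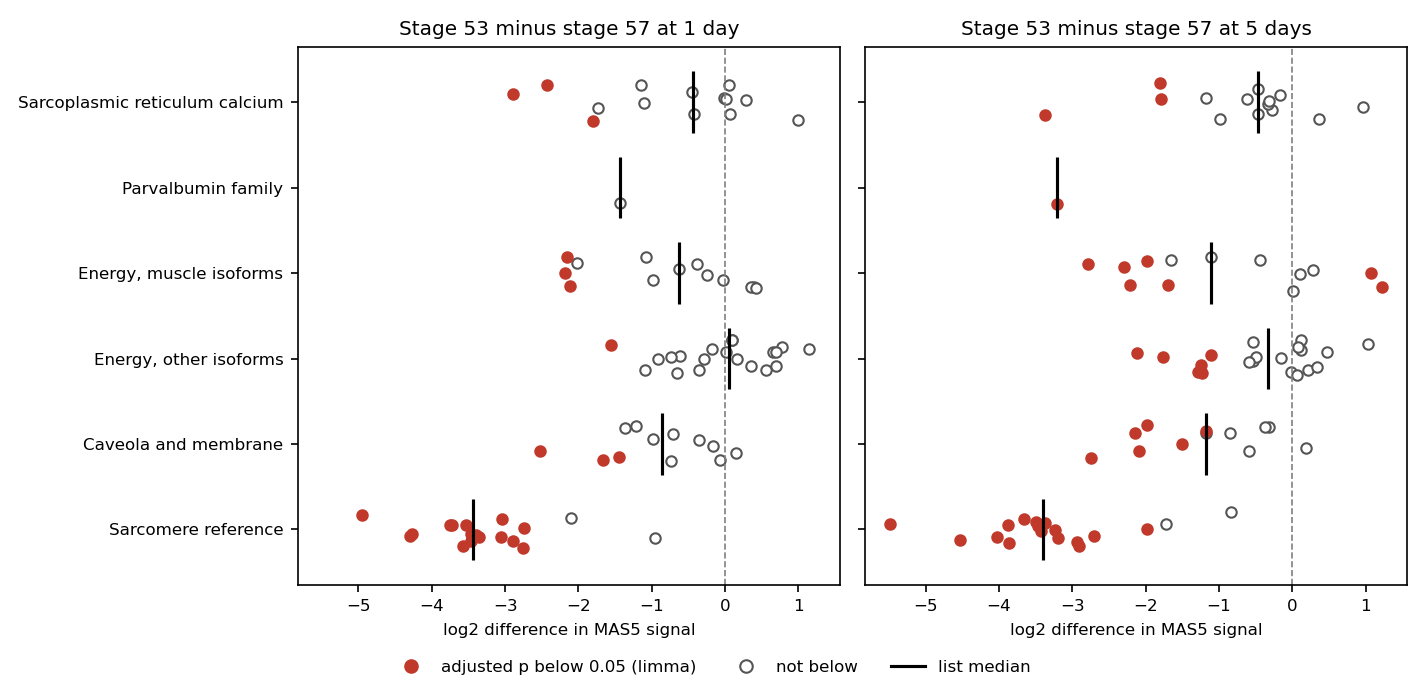
Log2 difference in MAS5 signal, stage 53 minus stage 57 (horizontal axes), of the genes in the 5 lists and the sarcomere reference (rows) at 1 day and at 5 days; filled points pass limma's adjusted p below 0.05 and black lines are list medians. Called genes lie mostly on the lower side, with pfkm.S and slc2a4.L the 2 higher exceptions, and the sarcomere genes lie lowest with medians of -3.43 and -3.39.

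Markers of other tissues also moved with stage. Among 6 tested epidermal genes 2 were higher at stage 53 at 1 day and 1 at 5 days, and without the 3 arrays of high actin ratio both 1 day calls were lost (krt12.2.S from 2.69 to 2.79 with an adjusted p of 0.0699, krt8.1.S from 1.78 to 0.9 with 0.264) while krt12.5.S joined krt12.2.L at 5 days. The summed signal of the 9 epidermal genes was 40948 to 57758 and 35592 to 50185 at stage 53, against 25289 to 40121 and 23572 to 35215 at stage 57. Smooth muscle tagln.L was lower at stage 53 on both days (-2.7 and -3.6), as was mybpc3.S, a cardiac gene in mammals (-2.5 and -2.14), which was the only one of 8 heart genes bright enough to test. The 1 day tagln.L call was lost when only the 2 groups compared were fitted (limma adjusted p = 0.107) and without several single arrays. On each day the mybpc3.S call was lost with some single array left out. Without the 3 arrays 2 of 4 tested smooth muscle genes were lower at 1 day and 3 at 5 days. The summed signal of the 7 smooth muscle genes was 690 to 1080 and 908 to 1133 at stage 53, against 1117 to 4100 and 1475 to 5819 at stage 57. Summed heart markers were 330 to 457 and 273 to 672 at stage 53, against 787 to 2325 and 916 to 2047 at stage 57. The cartilage gene matn1.L was lower at 1 day (-2.94, 1 of 4 tested), and without the 3 arrays matn1.L (-2.59) and col9a1.L (-2.34) were called lower at 5 days. In the same list sox9.S lay in the other direction (1.08 and 0.18, or 1.44 and 0.15 without the 3 arrays). Neither sox9.S nor col2a1.S (-1.29 and -1.42) was called on either day. The 1 day matn1.L call was lost with quantile normalization (limma adjusted p = 0.0726) and with either offset (0.0846 and 0.179). Summed cartilage signal was 2296 to 6042 and 2969 to 8127 against 3987 to 7658 and 3011 to 32355. No erythroid gene of 4 tested was called, but without the 3 arrays the globin genes hba2.L (1.98, adjusted p = 0.0107, from 1.12) and hba3.L (1.24, adjusted p = 0.0214, from 0.56) were higher at stage 53 at 5 days. The erythroid sum was 39646 to 66246 and 20928 to 48489 against 27475 to 84113 and 7078 to 80019. Without the 3 arrays 1837 of 11618 tested probe sets were called at 5 days, against 856 with all arrays, so the marker calls gained at 5 days came with a rise over the whole table. No value of the whole table was at or below 0, so a marker signal above 0 does not show that the marker was detected. The part of tissue makeup in the stage differences of the 5 genes was not tested.

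Of the 45 places among the 5 nearest genes of the 9 stage-dependent probe sets, by r of levels over the 16 arrays, 13 were held by genes of the sarcomere list, and 0 of these belonged to atp2a1.S A or to ckm.L A and B. In these 3 probe sets the 3 arrays of high actin ratio lay below the other 5 stage 57 arrays, and likeness without those arrays was not computed. For casq1.S the nearest was actn3.L (r = 0.956), and for cavin4.S myl1.L and ybx3.S (both 0.956), then tnnt3.S (0.953). For ocm4.4.S it was acta1.S with probe set D (0.966) and tnni2.S with probe set C (0.953). For ckm.L B it was slc25a4.L (0.964). The nearest genes to atp2a1.S A were ccn1.S (0.943), col6a2.L (0.933) and ckm.L itself (0.93). The probe sets without a stage difference had other neighbours, smad1.S for atp2a1.S B (0.873) and cab39l.L (0.891) and mmp7.L (0.888) for ckm.L C. After group means were removed, the nearest gene to ocm4.4.S B was ocm4.1.L (0.93), that to casq1.S was the globin gene hba-l5.L (0.908), and that to ckm.L C was tmbim4.L (0.931). These are the highest correlations over all tested probe sets, from arrays that share RNA and scaling, and they describe likeness only.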

How the data were processed

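Total RNA of hindlimb stumps was amplified and measured on 16 Affymetrix Xenopus arrays of 1 colour each, grouped by the stage and day in the array titles. Signal intensities, linear in scale, were made by the authors with MAS5, according to the processing notes of the submitters. Which version and scaling target they used is not given in the sources used here. Each array's mean, after the outer 2% of rows was removed, was 1000.1 to 1000.2, and values ran from 0.6 to 325607.8. The number of arrays limits the precision. No detection calls were used.

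The signals were put on the log2 scale with no offset added, 120 control probe sets were left out, and probe sets with a mean log2 above the 25th percentile (6.601) were kept. Group means of all 16 arrays were fitted in R 4.3.3 with limma 3.58.1, using lmFit and then eBayes with a trend on mean intensity, and p-values were adjusted by the Benjamini-Hochberg method over 11618 probe sets per contrast. A call is an adjusted p below 0.05. The fit was tested on simulated data. Symbols were updated through RefSeq (Xenopus_laevis_v10.1), where Entrez identifiers matched for 9227 of 9304 probe sets with 1 symbol and 2 names changed. No member was named by the 195 probe sets with several symbols. Coordinates and sequences were not used here.

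The members and gene lists were chosen with earlier results of these data known. The lists are calcium handling, parvalbumin family, muscle and other energy isoforms, caveola and membrane, a sarcomere and a myogenic reference, and markers of heart, smooth muscle, cartilage, epidermis and erythroid cells. Genes named in the text are all members, up to 4 called genes per list and contrast by the smallest p, 13 genes fixed by name (those with a tested probe set are printed), and the 5 nearest genes by Pearson r, of which the first are printed. Further called genes of the energy and caveola lists (aldoa.L, slc2a4.L, pgam1.S, pkm.S, bin1.L), aldoa.S, and genes whose calls differ once those 3 arrays are dropped (the ones of high actin ratio) were named after their values were seen. The same holds for ldhb.S, pkm.L, gapdh.L, eno1.L, eno1.S, sox9.S and col2a1.S, which were not called. In the myogenic reference 1 of 8 genes (myod1.L, -1.84) was lower at stage 53 at 1 day and 0 at 5 days; without the 3 arrays of high actin ratio the myod1.L call was lost (adjusted p = 0.0565), and 2 (myog.L and myog.S) were lower at 5 days. Alternatives tried were quantile normalization, median centring, offsets at the 10th and 25th percentile, no filter and a 50th percentile filter, no intensity trend, only the groups compared, every kept probe set, no arrays of high actin ratio, and each array left out.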

Additional observations from a re-analysis of the deposited data

Results flagged for a closer look

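Of 44 sets of 4 arrays (11 probe sets in 4 groups), 4 held an array whose gap to its nearest neighbour exceeded Dixon's critical value as a share of the group's range, and chance alone marks about 1 in 20. Of these, 2 were stage 57 at 1 day, replicate 1, which was high. It read 11.68 for casq1.S, where the other 3 arrays read 8.85 to 9.2, and 12.89 for ckm.L B, where the others read 9.49 to 9.87. The other 2 were stage 53 at 1 day, replicate 2, which was low in a pair of overlapping ocm4.4.S probe sets. It read 3.67 with probe set A, where the others read 6.89 to 7.23, and 6.08 with probe set B, where the others read 7 to 7.11.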

How the results depend on the processing

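No paired analysis was possible because the labels give the groups no shared replicate numbers. For the members' day change at stage 57, 0 probe sets were called in any of 25 alternatives. For the 60 genes of the 5 lists, 0 were called for the day change at stage 57 in 26 alternatives and for the difference between day changes in 25. The count for stage 53 minus stage 57 at 1 day, 10 in the text, was 5 with the 50th percentile filter (40 genes tested), 6 with only the groups compared, and 3 to 14 with each array left out. At 5 days, 23 in the text, it was 14 with the 50th percentile filter and 13 to 24 with each array left out. For the day change at stage 53, 0 in the text, it was 6 with only the groups compared, 7 without the 3 arrays of high actin ratio, and 0 to 2 with each array left out, the 2 (pgk1 and pkm.S) without stage 57 replicate 3 at 1 day. Of 28 stage calls of named genes of these lists (tissue markers not counted), 14 held in every alternative run and 14 were lost in at least 1, in 8 at most. Apart from the alternatives that test fewer genes or arrays, the cause was not tested. With an array left out, all 880 values of the members' log2 differences moved by less than the replicate SD. In groups of 4 arrays, 1 array can hardly move a mean further, so this count says nothing about stability. The 1 day stage difference of ckm.L A went from -1.94 to -1.0 without stage 57 replicate 1. In 453 of 459 other values the move was also less than the replicate SD. In the other 6 the differences shrank with a larger offset, cavin4.S at 1 day to -3.04 and casq1.S at 5 days to -3.62. Fitting only the groups compared gives no separate value for the difference between day changes. Without detection calls, folds of probe sets dim at stage 53 are uncertain.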
